A study of Drosophila melanogaster with 2 samples.

Results

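The dpr and DIP genes of Drosophila melanogaster encode cell-surface proteins of the immunoglobulin superfamily that neurons use to recognise each other. Here they were examined as possible binding locations of CG31365, a protein tagged with GFP and mapped by chromatin immunoprecipitation followed by sequencing (ChIP-seq). The members were chosen by gene symbol (dpr followed by a number, or DIP- followed by a Greek letter), and the family was picked with its peaks already in view. There were 32 members, 21 dpr genes and 11 DIP genes, among 13945 protein-coding genes of the annotation. Counts of peaks at the members are therefore descriptions, and no test was made on them.

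Chromatin came from whole embryos of both sexes, 0 to 24 h old, of a transgenic line that stably carries CG31365 with GFP at its C-terminus, and it was sonicated to 200 to 800 bp. The experiment had 1 group of 2 biological replicates, numbered 3 and 2 in the labels. A free-text label names both libraries as input, but their remaining labels describe ChIP against CG31365, and the file listing names a separate control for the peak calls. Each replicate has a list of 30000 ranked regions, as does the pool of both. A shorter list of 2821 peaks passed a filter on the irreproducible discovery rate (IDR), which retains peaks with consistently high ranks. The sources used here do not say which lists were compared for it, so agreement of both replicates is not assured for each peak. Whole embryos mix all cell types, so binding in few cells and weak binding in many cells cannot be told apart, and the embryos' neurons were not separated. The number of reads behind the lists is unknown.

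Dpr proteins (defective proboscis extension response) are bound by DIPs (Dpr-interacting proteins) in selective pairs. A neuron carrying a given Dpr can thereby be matched to a partner carrying the cognate DIP, and the pairs are known for roles in synaptic partner choice, layer choice in the optic lobe and neuron survival. The family takes its name from dpr1, which is needed for the aversion of the proboscis extension response to salt. Among the pairs, DIP-alpha binds dpr6 and dpr10, DIP-gamma binds dpr11, DIP-delta binds dpr12, and DIP-beta binds dpr8, dpr9 and dpr21. CG31365 itself encodes a predicted zinc-finger protein.

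Of the 32 members, 5 held an IDR peak, which here means a summit inside the annotated gene or within 1000 bp of one of its start sites. The dpr genes accounted for 4 of them, dpr2, dpr20, dpr3 and dpr14, all with the summit 417 to 698 bp upstream of a start site. The fifth lay in an intron of DIP-alpha. The dpr2 peak was the 16th highest of the 30000 pooled peaks.

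The sequences under 3 of these summits are shown because they differ in how often they carry AAGCAGT, a 7-base word that was itself picked from the strongest peaks of these data. Each is the forward strand of the RefSeq copy of BDGP6 (dm6), 120 bases to either side of the pooled summit, and none of the printed bases lies in an annotated UTR. Capitals mark AAGCAGT or its reverse complement ACTGCTT, and in dpr20 also a match to AGNNGGCGC, a core of the CTCF motif. All 3 genes are on the reverse strand, so ACTGCTT in the printed strand reads AAGCAGT in the direction of the gene.
dpr2, chr2L:10964532-10964772: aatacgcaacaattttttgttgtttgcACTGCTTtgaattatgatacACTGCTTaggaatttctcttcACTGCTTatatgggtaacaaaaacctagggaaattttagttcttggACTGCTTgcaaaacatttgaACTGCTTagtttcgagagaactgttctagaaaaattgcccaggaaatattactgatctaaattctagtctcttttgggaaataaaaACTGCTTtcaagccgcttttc
dpr3, chr2L:2110456-2110696: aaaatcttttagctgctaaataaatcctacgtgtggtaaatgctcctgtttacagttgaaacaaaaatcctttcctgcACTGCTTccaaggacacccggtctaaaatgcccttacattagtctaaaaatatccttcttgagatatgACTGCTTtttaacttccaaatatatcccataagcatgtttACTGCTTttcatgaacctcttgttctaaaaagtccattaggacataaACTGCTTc
dpr20, chr3L:857620-857860: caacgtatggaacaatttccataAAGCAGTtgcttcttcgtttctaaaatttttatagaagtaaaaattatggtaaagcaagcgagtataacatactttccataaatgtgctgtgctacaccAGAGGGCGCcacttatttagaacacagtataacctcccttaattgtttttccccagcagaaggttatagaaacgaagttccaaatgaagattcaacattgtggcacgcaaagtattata
The dpr2 window held 6 copies, all in the direction of the gene. The dpr3 window held 4, likewise all in that direction. The dpr20 window held 1, facing the other way.

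The 5 peaks had the same order of strength in the pooled list and in replicate 3, and in replicate 2 the order depends on which of the summits at dpr20 is taken. The quantity is the authors' signal value (column 7 of the peak lists), the peak caller's enrichment for each peak, and it is used only to rank and describe peaks within a list. For dpr2, the signal value was 6036 in the pooled list (rank 16), 3777 in replicate 2 (rank 12) and 2275 in replicate 3 (rank 16). The replicate summits lay 12 and 5 bp from the pooled summit, so the peak was near the top of every list at nearly the same base. Its interval, chr2L:10964082-10965031, was 950 bp wide and ran across the dpr2 start site, against a median of 384 bp for IDR peaks. Only 11 of the 2821 IDR peaks were wider. The summit was 499 bp upstream of dpr2, and the closest start site of another gene, Tmem214, was 1971 bp away.

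The dpr20 peak, chr3L:857595-857994, had a signal value of 748 (rank 194) in the pooled list. In replicate 2 the highest summit in the interval had a signal value of 472 (rank 168), and in replicate 3 the value was 297 (rank 229). The replicates differed in position here: the replicate 2 summit lay 134 bp from the pooled summit, while the summit within 100 bp was weaker, 92.6 (rank 1700), and lay 73 bp away on the other side, and the replicate 3 summit lay 12 bp away. The pooled summit was 492 bp upstream of dpr20, and no other start site was closer than 6394 bp.

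The dpr3 peak, chr2L:2110508-2110803, was placed at the same base in both replicates to within 1 bp. Its signal value was 472 in the pooled list (rank 352), 275 in replicate 2 (rank 321) and 196 in replicate 3 (rank 403). The summit was 698 bp upstream of dpr3, the farthest of the 4, and the next start site of another gene, CG4259, was 18661 bp away.

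The dpr14 peak, chrX:7908621-7908802, lay in a gap shared with another gene. Its signal value was 343 in the pooled list (rank 544), 159 in replicate 2 (rank 711) and 181 in replicate 3 (rank 465). The summit was 417 bp upstream of dpr14 but 228 bp from the start of spidey, a gene on the opposite strand whose start is 645 bp from that of dpr14; spidey encodes a steroid and lipid dehydrogenase. The peak therefore cannot be assigned to dpr14 rather than spidey by position.

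At DIP-alpha the peak was weaker and lay inside the gene. Its interval, chrX:3546091-3546474, had a signal value of 128 in the pooled list (rank 2672), 70.4 in replicate 2 (rank 2732) and 54.2 in replicate 3 (rank 3496). The lowest signal value in the IDR list was 124, so the peak was just inside the threshold. In replicate 3 it was present but not among the 2821 highest peaks, the length of the IDR list. The summit was 15618 bp from the nearest DIP-alpha start site and 173 bp from the start of a noncoding RNA gene, lncRNA:CR34335. Well below the threshold, the highest member peak not in the IDR list was at dpr10, with a signal value of 82.7 (rank 5519).

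**Figure D1:**
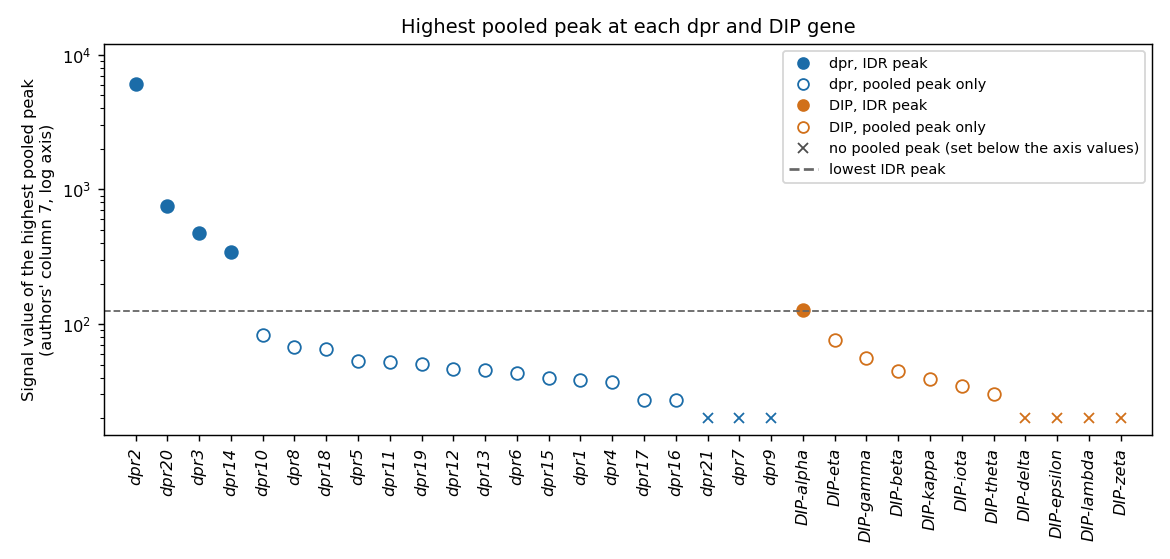
Signal value of the highest pooled peak (authors' column 7, log axis) at each dpr and DIP gene, with filled circles for genes holding an IDR peak and crosses for genes with no pooled peak; there are no error bars because the pooled list gives 1 value per peak. The dpr2 value of 6036 stands far above the others, DIP-alpha lies at the dashed line of the lowest IDR peak, and 7 genes have no pooled peak.

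Read against all genes, the family held IDR peaks at a share near that of the genome. An IDR peak was found at 5 of 32 members (15.6%, exact Clopper-Pearson 95% interval 5.28 to 32.8%, covering counting over genes only) and at 16.8% of all protein-coding genes. By family the counts were 4 of 21 dpr genes (19.0%, interval 5.45 to 41.9%) and 1 of 11 DIP genes (9.09%, interval 0.230 to 41.3%). The intervals of the families are wide with this number of genes and overlap, and a difference between dpr and DIP genes was not tested. Promoter peaks, with the summit within 1000 bp of a start site, were found at 4 of 21 dpr genes, at 0 of 11 DIP genes (upper bound 28.5%) and at 13.9% of all protein-coding genes.

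Gene length changes this reading. The members are long, with a median of 22.3 kb for dpr and 33.6 kb for DIP genes against 2.17 kb for all protein-coding genes, and longer genes more often held a peak. Of the members under 10 kb, 2 of 8 had an IDR peak (dpr20 and dpr14), against 12.6% of all genes of that length. From 10 to 50 kb it was 1 of 15 (dpr2; interval 0.169 to 31.9%), against 39.6%, and from 50 kb it was 2 of 9 (dpr3 and DIP-alpha; interval 2.81 to 60.0%), against 55.7%. Over all lengths from 10 kb, 3 of 24 members (12.5%, interval 2.66 to 32.4%) and 833 of 1977 genes (42.1%) held an IDR peak. The interval lay below the value for all genes over the whole range from 10 kb and from 10 to 50 kb, but from 50 kb it spanned that value. For promoter peaks alone, under 10 kb the counts were 2 of 8 members and 1401 of 11968 genes. From 10 to 50 kb they were 1 of 15 and 446 of 1670, and from 50 kb 1 of 9 and 91 of 307. The length classes were compared after the members were chosen, and no test was made.

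**Figure D2:**
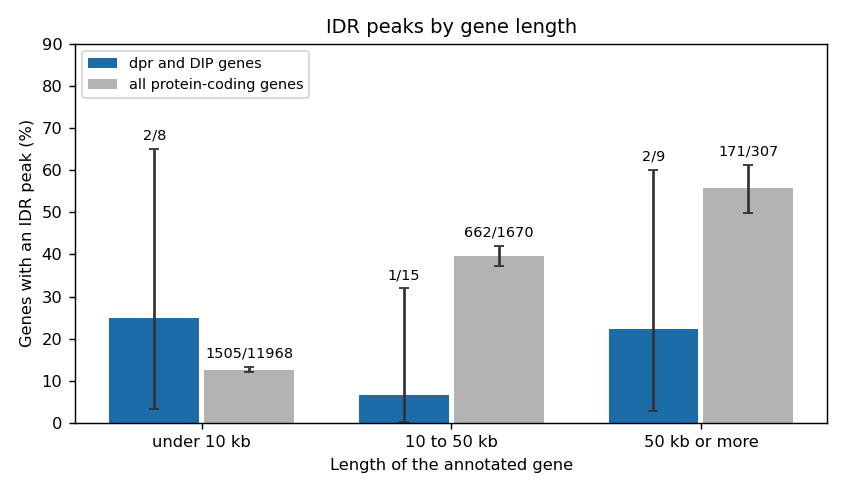
Percentage of genes with an IDR peak, by length of the annotated gene, for the members (blue) and all protein-coding genes (grey), with counts above the bars and exact 95% intervals that cover counting over genes only. From 10 kb upward the members' bars, 1 of 15 and 2 of 9, lie below those of all genes, 39.6% and 55.7%, and the members' interval spans the value for all genes both under 10 kb and from 50 kb.

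The position of the dpr peaks was also described against other bound promoters. Of 2239 pairs of a protein-coding gene and an IDR promoter peak, 272 (12.1%) had the summit 400 to 700 bp upstream, a range drawn around the 4 dpr summits after their positions were seen. The median distance over all pairs was 186 bp. The peak intervals at dpr3, dpr20 and dpr14 did not reach the start site, whereas that of dpr2 did.

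**Figure D3:**
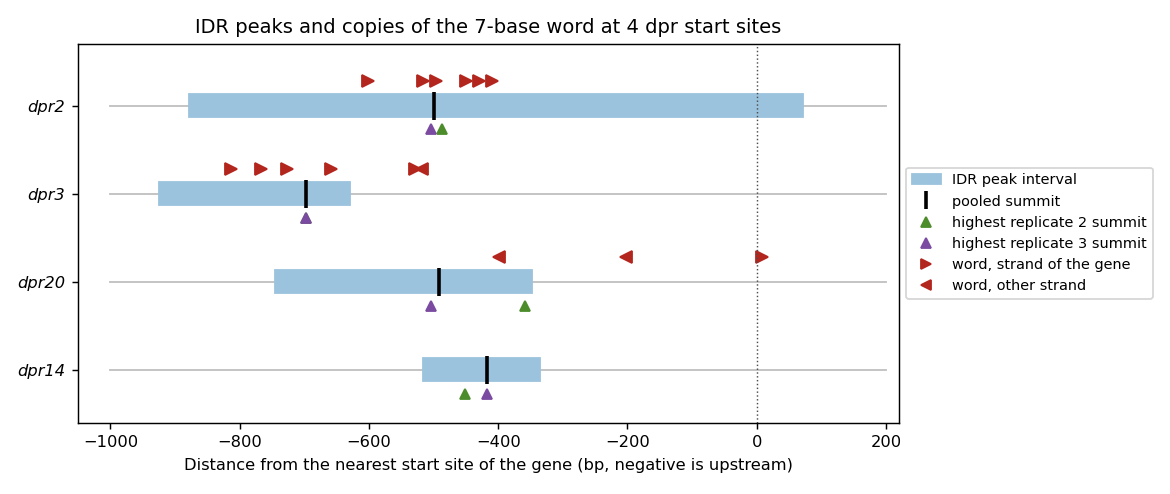
Map of the 4 dpr promoters with an IDR peak, as distance in bp from the nearest start site of the gene (negative is upstream): blue bars are peak intervals, black ticks pooled summits, triangles under the bars replicate summits, and red arrowheads copies of AAGCAGT. All 6 copies at dpr2 point in the direction of the gene, as do 5 of 6 at dpr3, and dpr14 has none.

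The copies of the word were concentrated at dpr2 and dpr3. Within 1000 bp of its start site dpr2 held 6 copies, 409 to 602 bp upstream and 3 to 103 bp from the summit. Of these, 5 lay within 100 bp of the summit, and only 2 of the 2821 IDR peaks had 5 or more copies at that distance, the most found; 51 IDR peaks had 3 or more and 373 (13.2%) had at least 1. Neighbouring copies at dpr2 started 20, 21, 46 and 20 bp apart. At dpr3, 6 copies lay 518 to 814 bp upstream, 3 of them within 100 bp of the summit and 68 and 40 bp apart. At dpr20 there were 3 copies near the start site, 1 of them within 100 bp of the summit, at 94 bp. The windows of dpr14 and DIP-alpha held 0.

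Shared direction was also common elsewhere, while the spacing varied. Of the other 49 IDR peaks with 3 or more copies, 25 (51.0%) had all copies on the same strand. Their 110 steps between neighbouring copies had a median of 21.5 bp, and 23 steps (20.9%) were 18 to 23 bp long, against 3 of 4 at dpr2. Of the bases next to the word, a preceding C was less common at member peaks, while a following G was about as common. Among the 9 copies at member peaks a C preceded AAGCAGT in 1 (11.1%), a G followed it in 4 (44.4%) and both were present in 0. Among 588 copies at other IDR peaks those shares were 53.6%, 49.0% and 28.7%. Copies of the same peak are neighbours in the genome and are not independent of each other.

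Member promoters with no more than 1 copy of the word in any 201 bp had no IDR peak, apart from dpr20 and dpr14. A copy lay within 1000 bp of a start site in 10 of 32 members (31.2%, 9 dpr genes and DIP-kappa) and in 27.7% of all protein-coding genes. In DIP-kappa, dpr1, dpr5, dpr6, dpr16, dpr17 and dpr19, each with 1 or 2 copies, the nearest IDR summit was at least 6806 bp from the copy. The number of copies close together went with the share of promoters holding an IDR peak. With 0 copies that share was 11.9% of 10080 genes (1 of 22 members), with at most 1 in any 201 bp 17.2% of 3666 (1 of 8 members), and with 2 48.0% of 171 (no member). With 3 or more it was 28 of 28 genes, of which dpr2 and dpr3 were 2, and the IDR summit lay at the cluster in 27 of the 28. Since the word was picked from these same peaks, the trend is a description and no independent evidence.

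**Figure D4:**
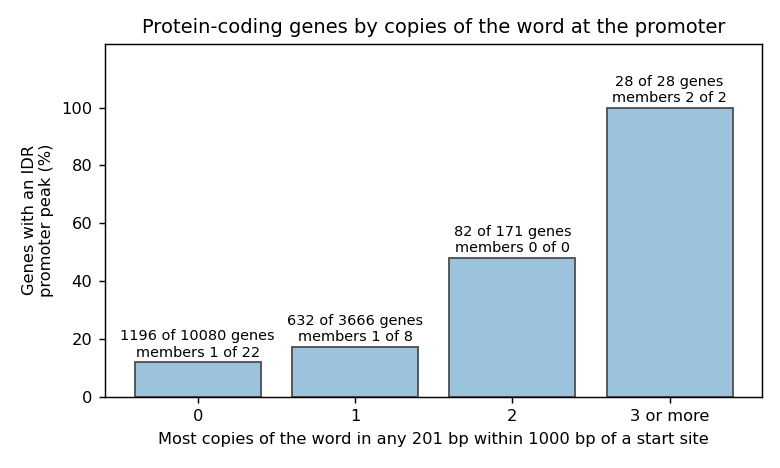
Percentage of protein-coding genes with an IDR promoter peak, by the most copies of AAGCAGT in any 201 bp within 1000 bp of a start site, with the counts of genes and of dpr and DIP members above each bar. The share is 11.9% with 0 copies, 48.0% with 2 and 100% with 3 or more, the class of dpr2 and dpr3.

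With 6 copies in 201 bp, dpr2 had the most of any protein-coding promoter, and it was the 1 gene with that number. The dpr3 promoter, with 4, was among 11 genes that had 4 or more. Over the 6 chromosome arms there were 71 clusters of 3 or more copies, and 58 (81.7%) had an IDR summit at the cluster. Within the bodies of the members there were 94 copies in dpr and 91 in DIP genes, or 1.06 and 1.32 per 10 kb. No 201 bp window of any member body held 3. In and around all members together, 9 of 205 copies (4.39%) were within 100 bp of an IDR summit, against 599 of 17376 (3.45%) over the arms.

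Other short elements were looked for in the same windows after those had been read, on both strands and within 100 bp of the summit. The dpr20 peak had a match to the CTCF core AGNNGGCGC 6 bp from its summit, a sequence found at 4.61% of IDR peaks and at 2.58% of lower-ranked pooled peaks. GAGAG, the element of GAGA factor, had 3 matches at DIP-alpha, the nearest 36 bp from the summit, and 1 at dpr2. It was found at 29.4% of IDR peaks and 26.8% of lower-ranked ones. The DRE element TATCGATA, found at 3.01% of IDR peaks, was in none of the 5 windows. A match is a description of the sequence and no sign that the factor was bound.

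Below the IDR threshold lay only weak peaks at the members. The pooled list, by its title, holds background as well as peaks, so these need not mark binding. The members held 0.760 pooled peaks per 10 kb, against 2.99 over all protein-coding genes, a value not matched for gene length. Any pooled peak was found at 18 of 21 dpr genes (85.7%) and 7 of 11 DIP genes (63.6%), together 25 of 32 members (78.1%), against 58.9% of all protein-coding genes. By length it was 7 of 8 members under 10 kb against 53.6%, 11 of 15 from 10 to 50 kb against 90.7%, and 7 of 9 from 50 kb against 92.8%. Of the 120 pooled peaks at members, 114 overlapped no IDR peak. Their signal values ran from 27.3 to 82.7 with a median of 33.5, against a median of 40.3 for all lower-ranked pooled peaks, and 75 of them had a rank number over 20000. A peak in both replicate lists was found for 28 of the 114 (24.6%), against 32.9% of all lower-ranked pooled peaks. Peaks of the same gene are not independent of each other, and the shares were not tested.

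These weak peaks lay mostly in introns. By placement, 15 were at promoters, 6 in exons and 93 in introns. Intronic placement made up 84.0% of those at dpr and 75.8% of those at DIP genes, against 46.2% of the gene and peak pairs of all protein-coding genes. These shares were not matched for gene length, and the members are longer than most genes. In genes of 10 kb or more, exon and intron pooled peaks numbered 0.801 per 10 kb in 14 dpr genes, 0.423 in 10 DIP genes and 1.84 in all 1977 genes of that length. Both families had a lower value than all genes of that length, but the families differed from each other mainly through DIP-lambda, which is long and had no peak. Without dpr21 the dpr value was 0.939, and without DIP-lambda the DIP value was 0.949. The word was within 100 bp of the summit in 2 of the 114 (1.75%), at dpr5 and DIP-gamma, against 2.72% of all lower-ranked pooled peaks.

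The dpr5 case is shown because it carries a copy at a promoter with only a weak peak. On the forward strand of the RefSeq copy of BDGP6 (dm6), with ACTGCTT in capitals, the copy lay 69 bp upstream of the start site.
dpr5, chr3R:11499901-11499929: ggcgcaaggacACTGCTTctcctggagat
The peak there had a signal value of 53.1 (rank 10856), and the highest dpr5 peaks of replicates 2 and 3 ranked 14093 and 10208.

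The highest weak peaks of each family were read gene by gene. At dpr10, which encodes a partner of DIP-alpha, the peak lay at the promoter, 13 bp from the start site (chr3L:10185929-10186312), and ranked 5519 in the pooled list, 6185 in replicate 2 and 5537 in replicate 3. At dpr8, a partner of DIP-beta, it lay in an intron (chrX:14446836-14447219), with a signal value of 67.8 and rank 7459, and the replicates ranked it 10314 and 9524. At dpr18 it lay 670 bp upstream (chrX:16062876-16063259), with a value of 65.7 and rank 7817, but the replicates ranked it 14850 and 6423, and another gene's start was nearer. The replicates thus gave similar ranks to the dpr10 and dpr8 peaks and different ones to that of dpr18.

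In the DIP family, the highest weak peak was in an intron of DIP-eta (chr2L:5610052-5610435), with a signal value of 76.3 and rank 6235. The replicates differed in its rank, 18752 in replicate 2 and 3788 in replicate 3. A further intronic peak of DIP-alpha (chrX:3570160-3570543) had a value of 57.2 and rank 9688, with ranks of 11092 and 13204 in the replicates, and another gene's start was nearer. At DIP-gamma, which encodes the partner of dpr11, the intronic peak (chr3R:28959182-28959565) had a value of 55.6 and rank 10075, and the replicates ranked it 11198 and 12056. These last 2 were ranked alike in the replicates but low in every list.

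The remaining members fell lower still. Among dpr genes the highest pooled signal value was 52.0 at dpr11, 50.7 at dpr19, 46.7 at dpr12 and 45.3 at dpr13. It was 43.2 at dpr6, which with 18 pooled peaks had the most of any member over its 165 kb, and 39.7 at dpr15. For dpr1, the founding member, it was 38.2, and for dpr4 37.1. The lowest were dpr17 at 27.5 and dpr16 at 27.3, the latter at rank 29997 of 30000. Among DIP genes, DIP-beta reached 45.1, DIP-kappa 39.4, DIP-iota 34.5 and DIP-theta 30.3. The highest peaks of dpr11, dpr16 and dpr17 had no summit within 100 bp in either replicate. Those of dpr1, dpr4, dpr12, dpr15, DIP-iota and DIP-theta were matched in a single replicate only. Genes that lie next to each other did not share a strong peak: dpr6 and dpr10 are 8.09 kb apart, DIP-eta and DIP-theta 8.34 kb, and none of the 4 had an IDR peak.

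**Figure D5:**
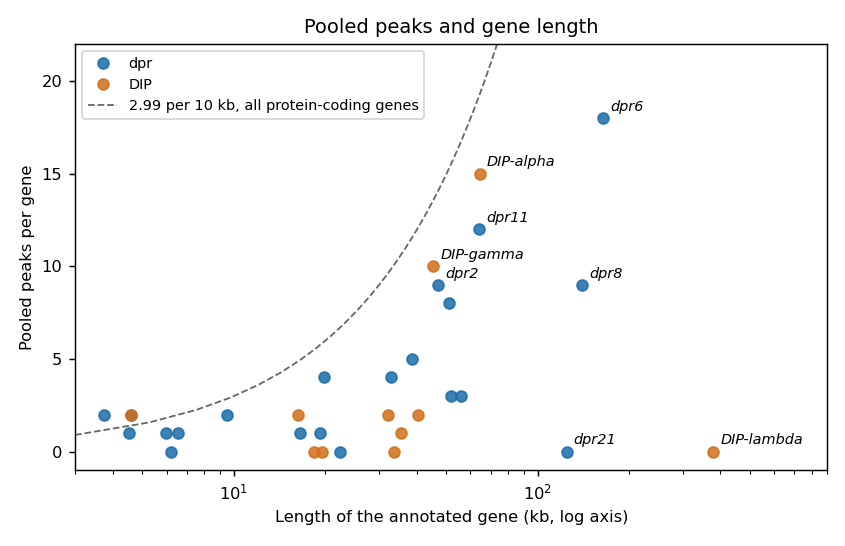
Number of pooled peaks per member against the length of the annotated gene (kb, log axis), dpr in blue and DIP in orange; the dashed curve is the number that 2.99 pooled peaks per 10 kb, the value over all protein-coding genes, would give. All members longer than 10 kb lie below the curve, and dpr21 and DIP-lambda have 0 pooled peaks despite their length. The curve is not matched for length: over all genes of 50 kb or more the value is 1.85 per 10 kb. DIP-alpha (2.33) and dpr11 (1.87) exceed that value, and the other members of that length are below it.

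No pooled peak was found at 7 members: dpr7, dpr9, dpr21, DIP-delta, DIP-epsilon, DIP-lambda and DIP-zeta. Of these, dpr7, dpr21, DIP-lambda and DIP-zeta had no peak in either replicate list, so that 28 members had at least a weak region in some list. DIP-lambda (379 kb) and dpr21 (125 kb) are the first 2 members along arm 2R, where few genes had peaks: 2 of 13 other protein-coding genes up to the end of dpr21 (15.4%) had a pooled peak and 0 had an IDR peak. Around dpr7, on chromosome 4, 15 of 79 other genes (19.0%) had a pooled peak and 4 had an IDR peak. The absence of peaks at these 3 members thus went with few peaks at their neighbours; the part that repeats or mappability play was not tested. Without the 3 genes, the members held 1.12 pooled peaks per 10 kb.

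Other genes of neuronal recognition gave a setting for these counts. The lists overlap the family in function and were made with results of these data known. Among 22 beat and side genes, which encode another set of paired immunoglobulin-superfamily receptors and ligands, 4 had an IDR peak (18.2%, interval 5.19 to 40.3%). Among 20 axon guidance genes it was 9 (45.0%, interval 23.1 to 68.5%), and among 40 other recognition and adhesion genes 18 (45.0%, interval 29.3 to 61.5%). All 3 lists are of long genes, with median lengths of 41.2, 30.6 and 40.6 kb. The dpr and DIP share of 15.6% was close to that of the beat and side genes, and its interval overlapped those of the other lists.

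The peaks of these lists were lower than that of dpr2. The highest was at beat-Ia, needed for motor axons to leave their bundle, with a signal value of 3032 (rank 54), 202 bp from the start site and with 4 copies of the word within 100 bp of the summit. Next in that list came beat-Ib at 340 (rank 556) and side, which encodes a Beat-Ia ligand, at 152 (rank 1987), both intronic and without a copy. In the guidance list the highest were the Netrin receptor gene fra at 460 (rank 365), NetB, a Netrin, at 316 (rank 634), and the Slit receptor gene robo2 at 208 (rank 1229). In the adhesion list they were Fas1 at 1100 (rank 128), Toll-7 at 642 (rank 238) and Fas2 at 620 (rank 243), the last with 3 copies.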

How the data were processed

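CG31365-GFP ChIP-seq of 1 group of 2 replicates was used, with 0 other groups, so no comparison between conditions and no test was possible. Per the file headers and listing, the authors deposited ranked peak lists on dm6 for each replicate, the pooled replicates and the IDR step. The signal value (column 7), the −log10 q-value (column 9) and the summit (column 10) are as deposited by the authors. Aligner, peak caller settings, IDR threshold and read depth are not given in the sources used here. Peaks were assigned to genes of Ensembl release 115 (BDGP6.54) by their summit, in the gene or within 1000 bp of a start site, and placed as promoter, then exon, then intron. A peak counted as shared by a replicate with a summit within 100 bp. Sequence came from the RefSeq copy of dm6. Work was done in Python 3.11.15 with pandas 2.3.3, numpy 2.4.6, matplotlib 3.10.9 and scipy 1.17.1, and the assignment was tested on simulated data. The members, gene lists and 7-base word were chosen with earlier results of these data known. All members were named, with every IDR peak, the 3 highest weaker peaks of each family, the 3 highest genes of each list, and other genes starting within 1000 bp of a member IDR summit. Alternatives were the window around start sites, overlap in place of summits, stricter and rank-based peak sets, single replicates, and assignment to the nearest start. Single replicates were cut to their 2821 highest peaks. Intervals cover counting over genes only.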

Additional observations from a re-analysis of the deposited data

How the results depend on the processing

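The count of dpr genes with an IDR peak was 3 or 4 under every alternative tried. The share of all protein-coding genes with an IDR peak, 16.8% as reported, was 15.2% with a 500 bp window around start sites, 19.5% with 2000 bp, 17.6% by interval overlap, 9.34% with only the 1410 highest IDR peaks and 12.6% when peaks nearer another gene's start were dropped. With the 1410 highest peaks, DIP genes with an IDR peak and intronic member peaks both numbered 0. Dropping peaks nearer another gene's start left 3 member peaks, 0 DIP genes and 0 intronic peaks. Taking only the 2821 highest peaks of replicate 3 or of replicate 2 gave 0 to 1 DIP genes and 0 to 1 intronic peaks. The DIP-alpha peak is therefore the least stable. No paired analysis was possible because there is 1 group. Each family has few genes, so only wide intervals can be given, and without read depth a missing peak is not shown to be missing binding.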
